A study of Mus musculus with 6 samples.

Results

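The genes described here belong to families whose proteins read, write, erase or move chromatin. They were taken by gene symbol, with no measured value in the rule: the families named Smarc and Chd (nucleosome remodelers), Cbx, Phc, Pcgf and Ezh together with Suz12, Eed, Ring1 and Rnf2 (heterochromatin and Polycomb proteins), Brd (bromodomain proteins), Kat (acetyltransferases), Hdac and Sirt (deacetylases), Setd with Ehmt1, Ehmt2, Suv39h1 and Suv39h2 (lysine methyltransferases) and Kdm (lysine demethylases). Roles follow the symbol, so they also hold genes such as Setd3, which methylates actin, and Sirt5, which encodes a mitochondrial enzyme. The rule took 112 of the 24318 genes in the table. Of these, 106 had a mean of at least 1 FPKM (a fragment count corrected for transcript length and library size) over all 6 libraries and were tested. The 6 others were Kdm4d, Setd4, Smarcd3 and 3 genes that match by symbol without encoding a chromatin protein. These are the choline dehydrogenase gene Chdh, which was listed at 0 in every library, the opposite-strand transcript Chd3os and the pseudogene Smarca5-ps.

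The libraries came from CAD cells, a mouse neuronal line of catecholaminergic origin. In the siCircGigyf2 group the cells had received an siRNA against circGigyf2, a circular RNA made by back-splicing of exons of Gigyf2, and in the siNC group a control siRNA, with 3 libraries each. All libraries were made from total RNA depleted of ribosomal RNA. The comparison asks which RNAs differ after circGigyf2 is targeted in this line, and the time after siRNA treatment is not given in the sources used here. The labels do not give the siRNA sequence, and the level of circGigyf2 is not separated from that of its host gene in these values. Whether the differences follow from loss of circGigyf2 was not tested.

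DNA in the nucleus is wrapped around histones, and the proteins of these families decide how tightly and with which chemical marks. Remodelers of the SMARC (SWI/SNF, or BAF, and ISWI) and CHD families use ATP to slide or evict nucleosomes. Polycomb repressive complex 2 (PRC2) methylates histone H3 and PRC1 ubiquitinates histone H2A at silenced genes, while HP1 proteins bind methylated H3 in heterochromatin. In neurons the BAF complex is known for exchanging subunits as progenitors leave the cell cycle.

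Gigyf2 itself, the host gene, had 21.8, 21.1 and 21.3 FPKM in the siCircGigyf2 libraries and 23.2, 23.1 and 23.2 FPKM in the siNC libraries, without overlap. It fell by 0.11 on the log2(FPKM + 1) scale (limma adjusted p = 0.0287), a call lost in 6 of 14 alternative fits, among them those without siCircGigyf2 replicate 2 or 3 or any 1 siNC library. This row pools linear and circular RNA, so it is a weak check of the labels. Markers of other cell types were low in both groups: the summed FPKM of 4 astrocyte markers was 0.0222 to 0.202 in siCircGigyf2 and 0.0161 to 0.0830 in siNC libraries, with Aqp4 and Aldh1l1 at 0 throughout. For 4 microglial markers it was 0.167 to 0.304 in siCircGigyf2 and 0.0609 to 0.208 in siNC libraries, and for 4 oligodendrocyte markers 0.861 to 1.19 in siCircGigyf2 and 0.809 to 1.10 in siNC libraries, with 1 marker of each list at 0 throughout. For 4 endothelial markers the sums were 5.95 to 7.13 in siCircGigyf2 and 5.94 to 6.89 in siNC libraries, nearly all of it Pecam1, and for 4 fibroblast markers 1.79 to 2.36 in siCircGigyf2 and 1.47 to 2.06 in siNC libraries, with 2 markers at 0 throughout. Of 8 neuronal and catecholaminergic markers 7 reached a mean of 1 FPKM, and the sum of the 8 was 389 to 405 FPKM in siCircGigyf2 and 342 to 347 FPKM in siNC libraries. The members of this list moved in opposite directions. Tubb3, a neuronal tubulin gene, averaged 177 ± 8.53 FPKM in siCircGigyf2 and 120.5 ± 4.05 FPKM in siNC libraries and rose (0.55, limma adjusted p = 3.69e-05), while Dbh, of noradrenaline synthesis, and the transcription factor gene Phox2a fell (-0.37 and -0.20, limma adjusted p = 0.0434 and 0.0229). Th, the first enzyme of catecholamine synthesis, had 2.82 to 3.77 FPKM in siCircGigyf2 and 3.53 to 4.85 FPKM in siNC libraries and did not pass (-0.29, limma adjusted p = 0.0659), nor did Snap25 and Stmn2. What these differences have to do with the results below was not tested. The depth of each library relative to siNC replicate 1, from the smallest steps between low values, was 0.802 to 0.913 for siCircGigyf2 and 0.953 to 1 for siNC.

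Chromatin genes were called about as often as other genes, with more falls than rises among SMARC and HP1 genes and more rises than falls among PRC1 genes. Of the 106 tested, 24 rose and 20 fell in the siCircGigyf2 libraries at a limma adjusted p of 0.05, and 62 did not pass. The 44 called make 41.5%, beside 38.2% of all 11420 genes tested; 22.6% rose beside 19.5% of all genes, and 18.9% fell beside 18.7%. The groups did not overlap for 60 members (34 higher and 26 lower in siCircGigyf2), while the same held for 51.0% of all genes. Most changes were small. The median absolute log2 difference was 0.11 for chromatin genes and 0.12 for all genes, and the 44 called members ranged from a fall of the heterochromatin gene Cbx1 (-0.79) to a rise of the Polycomb gene Pcgf5 (0.77). Within groups the median SD of a gene was 0.063 on the same scale. Because RNA came from whole cultures, a smaller share of cells in some state and less RNA per cell cannot be told apart in any of these values.

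SMARC genes stood mostly on the lower side (8 fell and 1 rose of 12), as did HP1 genes (2 fell of 3), while CHD genes (3 rose and 0 fell of 10), PRC1 genes (7 rose and 3 fell of 15) and lysine demethylases (5 rose and 1 fell of 15) held more rises than falls. Acetyltransferases had 1 rise and 3 falls among 7, lysine methyltransferases 3 rises and 1 fall among 14, sirtuins 2 rises among 7 and bromodomain genes 2 rises among 8. Among 11 HDAC genes 1 fell, and among 4 PRC2 genes 1 fell. No test of a family as a set was made, and these counts are read beside the 19.5% of all genes that rose and 18.7% that fell. CHD genes were called in 30% and lysine demethylases in 40%, beside 38.2% of all genes. Leaving out 1 library gave 2 to 3 CHD rises, 5 to 6 PRC1 rises and 3 to 4 demethylase rises.

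**Figure D1:**
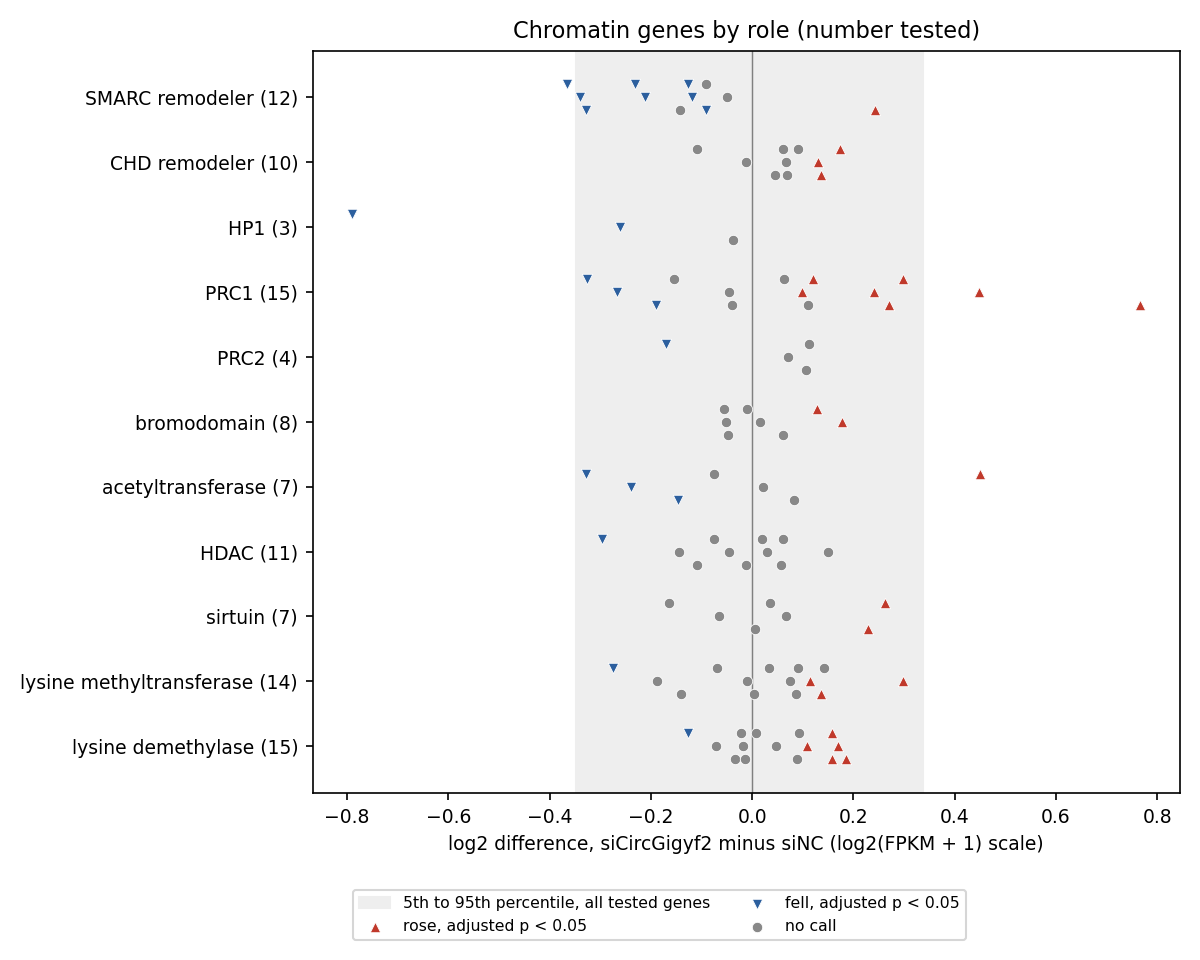
Each point is 1 of the tested chromatin genes, placed by its difference in mean log2(FPKM + 1), siCircGigyf2 minus siNC, in the row of its role. Red triangles rose and blue triangles fell at a limma adjusted p of 0.05, grey circles did not pass, and the grey band holds the middle of all tested genes, -0.35 to 0.34, without the outermost 5% on each side; 11 of 12 SMARC genes lie below 0, and Cbx1 and Pcgf5 lie farthest out.

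Core subunits of the BAF complex were lower in the siCircGigyf2 libraries. Smarcc1, a scaffold on which the complex is assembled, had 30.2, 30.5 and 30.6 FPKM in siCircGigyf2 and 38.3, 41.1 and 39.2 FPKM in siNC libraries. Its replicates lay far closer to each other than the groups did, and it fell by 0.37 (SE 0.035, limma adjusted p = 1.01e-04). Smarca4, the ATPase known as BRG1, had 20.5, 20.2 and 20.7 FPKM in siCircGigyf2 and 25.8, 26.0 and 25.9 FPKM in siNC libraries. Smarcd1, a subunit through which transcription factors contact the complex, had 18.3, 17.9 and 17.7 FPKM in siCircGigyf2 and 23.4, 22.7 and 22.9 FPKM in siNC libraries. Both separated as cleanly as Smarcc1 did, with falls of 0.33 for Smarca4 (SE 0.032, limma adjusted p = 1.16e-04) and 0.34 for Smarcd1 (SE 0.035, limma adjusted p = 1.37e-04). The ratio of the siCircGigyf2 to the siNC mean was 0.770 for Smarcc1, 0.789 for Smarca4 and 0.781 for Smarcd1.

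Other subunits fell by less. Smarcd2, a paralog of Smarcd1, averaged 13.2 ± 0.564 FPKM in siCircGigyf2 and 15.6 ± 0.795 FPKM in siNC libraries (SD, n = 3 each; log2 difference -0.23, limma adjusted p = 0.00649). The DNA-binding subunit Smarce1 averaged 28.0 ± 0.995 FPKM in siCircGigyf2 and 32.5 ± 0.259 FPKM in siNC libraries (log2 difference -0.21, limma adjusted p = 0.00178). Smarcb1, a core subunit found in nearly every form of the complex, averaged 46.9 ± 1.62 FPKM in siCircGigyf2 and 50.9 ± 0.586 FPKM in siNC libraries. This fall of 0.12 (limma adjusted p = 0.0224) lost its call without siCircGigyf2 replicate 1 or 3, without siNC replicate 2 or 3 and with no variance trend. Smarcd2, Smarce1 and Smarcb1 were picked with their values in view. Smarcc2, the second scaffold, averaged 21.1 ± 0.911 FPKM in siCircGigyf2 and 22.5 ± 0.601 FPKM in siNC libraries, with overlapping groups (log2 difference -0.09, limma adjusted p = 0.121). The alternative ATPase Smarca2 was expressed at a fraction of the Smarca4 level, with 2.75, 2.90 and 2.84 FPKM in siCircGigyf2 and 3.63, 3.22 and 2.88 FPKM in siNC libraries (log2 difference -0.14, limma adjusted p = 0.181), and did not pass either.

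SMARC members outside the BAF complex were divided. The ISWI ATPase Smarca5, the most abundant SMARC gene here, had 65.2, 63.6 and 64.4 FPKM in siCircGigyf2 and 68.3, 69.7 and 68.1 FPKM in siNC libraries. It fell by 0.09 (limma adjusted p = 0.0297), and this call was lost in 7 of 14 alternative fits, among them those without siCircGigyf2 replicate 2 or 3, without any 1 siNC library and with no variance trend. Its paralog Smarca1 had 3.42, 3.61 and 3.77 FPKM in siCircGigyf2 and 3.18, 2.82 and 2.67 FPKM in siNC libraries, and was the 1 SMARC gene that rose (0.24, limma adjusted p = 0.028). That call too was lost in 6 of 13 alternative fits, among them those without siCircGigyf2 replicate 2 or 3 and without siNC replicate 2 or 3. Smarcad1, a remodeler linked to heterochromatin upkeep, averaged 19.3 ± 0.374 FPKM in siCircGigyf2 and 21.1 ± 0.663 FPKM in siNC libraries and fell by 0.13 (limma adjusted p = 0.0289; named after its values were seen), a call lost without siCircGigyf2 replicate 1 or 3 or siNC replicate 1 or 2. Smarcal1, a helicase that acts at stalled replication forks, stood at 5.25 ± 0.199 FPKM in siCircGigyf2 and 5.48 ± 0.110 FPKM in siNC libraries. Leaving out siCircGigyf2 replicate 3 or siNC replicate 2 lowered the number of SMARC genes that fell to 5.

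**Figure D2:**
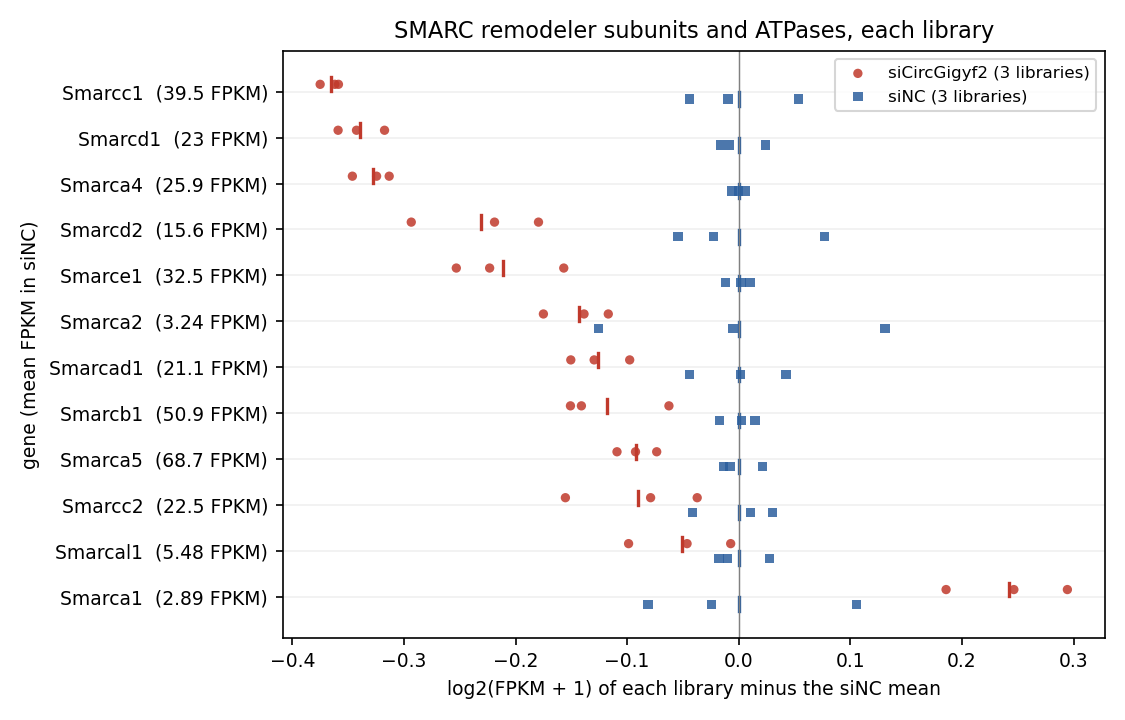
Each row is 1 of the 12 tested SMARC genes, with its mean siNC FPKM in parentheses; red circles are the 3 siCircGigyf2 libraries, blue squares the 3 siNC libraries and short bars the group means, as log2(FPKM + 1) minus the siNC mean. The groups are far apart for Smarcc1, Smarcd1 and Smarca4, touch or overlap for Smarca2, Smarcc2 and Smarcal1, and are in the opposite order for Smarca1.

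BAF and PBAF subunits whose symbols do not begin with Smarc came from a list of 15 genes, all tested. Of them 6 fell (40.0%, beside 18.7% of all genes) and 3 rose (20.0%, beside 19.5%). Ss18l1, the subunit (CREST) of neuronal BAF, averaged 12.4 ± 0.346 FPKM in siCircGigyf2 and 16.0 ± 0.270 FPKM in siNC libraries (log2 difference -0.34, limma adjusted p = 2.59e-04). Actl6a, the actin-related subunit of progenitor BAF, averaged 17.8 ± 0.299 FPKM in siCircGigyf2 and 21.4 ± 0.836 FPKM in siNC libraries (-0.25, limma adjusted p = 0.00133), and Pbrm1, which defines PBAF, averaged 18.8 ± 0.738 FPKM in siCircGigyf2 and 22.5 ± 0.0595 FPKM in siNC libraries (-0.24, limma adjusted p = 0.00128). The other falls were Dpf3 (-0.23, limma adjusted p = 0.0206), Dpf2 (-0.14, limma adjusted p = 0.00634) and Arid1a (-0.11, limma adjusted p = 0.0161). The Dpf3 call was lost in 5 of 14 alternative fits, and that of Arid1a without siNC replicate 1 or 3. Rises were seen for Dpf1 (0.21, limma adjusted p = 0.00457), a neuronal BAF subunit, for Bcl7a (0.27, limma adjusted p = 0.015) and for Arid1b (0.14, limma adjusted p = 0.022). Actl6b and Ss18, named like Actl6a and Ss18l1, did not pass (0.15 and 0.04, limma adjusted p = 0.449 and 0.663). The calls of Bcl7a and Arid1b were lost without siNC replicate 1, and that of Arid1b also without siCircGigyf2 replicate 1 or siNC replicate 3. The genes of this paragraph were picked with their values in view.

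The promoters of 3 of the BAF genes with the largest falls are shown because these 3 fell by similar amounts. They come from RefSeq on build GRCm38.p6, from 250 bases before to 50 bases after the start of the gene, and were searched on both strands for E2F (TTTNNCGC), NRF1 (GCGCATGC), ETS (CCGGAAG) and CCAAT letters, which do not overlap each other in these windows. The motifs were picked after some of these windows had been read. Capitals mark a match. The Smarcc1 window lies at chr9:110131774-110132073 on the plus strand and holds 1 NRF1 and 2 ETS matches.
Smarcc1: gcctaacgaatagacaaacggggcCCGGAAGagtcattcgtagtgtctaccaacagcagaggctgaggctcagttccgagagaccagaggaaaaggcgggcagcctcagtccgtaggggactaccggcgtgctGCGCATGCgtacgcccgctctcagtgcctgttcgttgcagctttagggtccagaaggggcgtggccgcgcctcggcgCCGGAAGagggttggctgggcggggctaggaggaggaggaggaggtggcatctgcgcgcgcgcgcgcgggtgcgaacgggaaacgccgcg
The Smarca4 window lies at chr9:21615919-21616218 on the plus strand and holds 2 NRF1 matches, 1 of them on the other strand.
Smarca4: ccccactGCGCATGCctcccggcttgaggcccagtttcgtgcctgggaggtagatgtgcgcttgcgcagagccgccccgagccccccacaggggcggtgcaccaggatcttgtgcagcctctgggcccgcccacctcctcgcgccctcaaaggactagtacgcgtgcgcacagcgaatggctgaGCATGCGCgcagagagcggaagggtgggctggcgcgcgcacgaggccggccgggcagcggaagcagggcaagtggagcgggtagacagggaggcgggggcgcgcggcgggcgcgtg
The Smarcd1 window lies at chr15:99702037-99702336 on the plus strand and holds 1 E2F match and no NRF1 match.
Smarcd1: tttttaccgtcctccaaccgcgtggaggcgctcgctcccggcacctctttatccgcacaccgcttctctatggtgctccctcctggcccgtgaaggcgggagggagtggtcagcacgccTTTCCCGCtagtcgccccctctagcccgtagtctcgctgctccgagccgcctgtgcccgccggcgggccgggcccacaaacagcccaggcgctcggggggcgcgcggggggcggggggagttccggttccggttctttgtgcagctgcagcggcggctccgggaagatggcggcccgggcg
NRF1 letters were found in 4 of the 7 SMARC genes that fell and have a window (Smarcc1, Smarca4, Smarcb1 and Smarca5), in 10.5% of the 86 tested chromatin genes with a window, in 6.36% of the 9177 tested genes with a window, and in 2.71% of all 32851 windows. E2F, ETS and CCAAT letters were each in 1 of these 7 genes. Among the 16 members of all roles that fell and have a window, E2F and NRF1 letters were each in 4 (25%). In all tested genes the shares were 10.3% for E2F and 6.36% for NRF1. The motifs were picked after some windows had been read, so these shares are no test of enrichment. A match is a run of letters and no evidence of binding.

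CHD remodelers were either higher or did not pass. Chd9 had 25.1, 25.2 and 24.2 FPKM in siCircGigyf2 and 21.9, 21.9 and 21.9 FPKM in siNC libraries, and rose by 0.17 (limma adjusted p = 0.00365). Chd2, a remodeler needed for normal brain development in humans, had 26.3, 26.3 and 26.7 FPKM in siCircGigyf2 and 23.7, 24.3 and 24.2 FPKM in siNC libraries (0.13, limma adjusted p = 0.0115). Chd6 averaged 17.5 ± 0.347 FPKM in siCircGigyf2 and 15.8 ± 0.526 FPKM in siNC libraries (0.14, limma adjusted p = 0.0263), a call lost in 5 of 14 alternative fits, among them those without siCircGigyf2 replicate 1 or 2 and without siNC replicate 1 or 2. These rises were small, with ratios of means of 1.13 for Chd9 and 1.10 for Chd2 and Chd6. Chd4, the ATPase of the NuRD corepressor and the most abundant CHD gene, averaged 132 ± 2.46 FPKM in siCircGigyf2 and 126 ± 1.36 FPKM in siNC libraries (0.07, limma adjusted p = 0.0808) and did not pass. Chd1, Chd3, Chd7 and Chd8 did not pass either, with log2 differences of -0.01, 0.06, 0.07 and 0.04.

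The largest fall of any chromatin gene was that of Cbx1, which encodes HP1 beta, a reader of methylated histone H3 in heterochromatin. Cbx1 had 17.9, 17.8 and 19.8 FPKM in siCircGigyf2 and 34.2, 30.9 and 32.9 FPKM in siNC libraries. The ratio of means was 0.566, the groups were far apart, and the gene fell by 0.79 (SE 0.052, limma adjusted p = 2.21e-05). Cbx5, which encodes HP1 alpha, had 47.3, 44.6 and 46.0 FPKM in siCircGigyf2 and 54.5, 56.4 and 55.0 FPKM in siNC libraries and fell by 0.26 (SE 0.033, limma adjusted p = 4.11e-04). Cbx3, which encodes HP1 gamma and is the most abundant of the 106 tested genes of the symbol rule, had 173, 167 and 171 FPKM in siCircGigyf2 and 172, 182 and 171 FPKM in siNC libraries. Its groups overlapped and it did not pass (-0.04, limma adjusted p = 0.405). The calls of Cbx1 and Cbx5 held in all 14 alternative fits.

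PRC1 had the highest count of rises of the 11 roles. Pcgf5 and Pcgf3, with the largest, encode proteins of variant PRC1, which carries a PCGF protein but no CBX. Next came Phc3 (0.30) and Cbx7 (0.27), of the PHC and CBX families described below, ahead of Pcgf6 (0.24). Pcgf5 had 10.1, 9.33 and 8.09 FPKM in siCircGigyf2 and 4.48, 5.37 and 5.06 FPKM in siNC libraries. Each siCircGigyf2 library exceeded each siNC library by a wide margin, with means at a ratio of 1.84 and a log2 difference of 0.77 (SE 0.084, limma adjusted p = 1.97e-04). Pcgf3, which forms the same kind of complex as Pcgf5, had 21.1, 19.7 and 19.3 FPKM in siCircGigyf2 and 14.6, 13.9 and 14.7 FPKM in siNC libraries (0.45, SE 0.045, limma adjusted p = 1.27e-04). Pcgf6, of a germline-gene silencing complex, averaged 11.98 ± 0.857 FPKM in siCircGigyf2 and 9.98 ± 0.386 FPKM in siNC libraries (0.24, limma adjusted p = 0.0098; named after its values were seen). Pcgf1 and Pcgf2 did not pass, with log2 differences of -0.04 and 0.06.

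Bmi1, which is Pcgf4 by family but carries an older symbol and so lies outside the rule, went the other way. It had 27.1, 25.4 and 26.4 FPKM in siCircGigyf2 and 37.9, 38.2 and 38.4 FPKM in siNC libraries and fell by 0.52 (SE 0.034, limma adjusted p = 2.21e-05). In the siNC libraries Bmi1 was the most abundant of the 6 PCGF genes measured, and in the siCircGigyf2 libraries it was close to Pcgf1, at 26.3 ± 0.865 FPKM for Bmi1 and 25.5 ± 3.00 FPKM for Pcgf1. The canonical PRC1 that contains BMI1 also holds a CBX and a PHC protein, and these genes were split. Cbx2 had 9.02, 10.4 and 8.98 FPKM in siCircGigyf2 and 12.1, 11.7 and 12.6 FPKM in siNC libraries, and fell by 0.33 (SE 0.061, limma adjusted p = 0.00318). Cbx6 averaged 33.1 ± 0.584 FPKM in siCircGigyf2 and 40.0 ± 0.884 FPKM in siNC libraries and fell by 0.27 (limma adjusted p = 3.27e-04). Cbx7, by contrast, averaged 12.3 ± 0.369 FPKM in siCircGigyf2 and 10.03 ± 0.435 FPKM in siNC libraries and rose by 0.27 (limma adjusted p = 0.00225; named after its values were seen). Cbx8 did not pass (-0.16, limma adjusted p = 0.0532).

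Among the Polyhomeotic genes, whose proteins polymerise and bring PRC1 complexes together, Phc3 averaged 13.8 ± 0.473 FPKM in siCircGigyf2 and 11.0 ± 0.197 FPKM in siNC libraries (0.30, limma adjusted p = 7.65e-04), and Phc2 averaged 28.1 ± 0.838 FPKM in siCircGigyf2 and 32.2 ± 1.26 FPKM in siNC libraries (-0.19, limma adjusted p = 0.00545). Phc1, at 25.3 ± 0.389 FPKM in siCircGigyf2 and 23.6 ± 0.0571 FPKM in siNC libraries, rose by 0.10 (limma adjusted p = 0.0406; named after its values were seen), but lost the call in 8 of 14 alternative fits, among them whichever library was left out. The catalytic ubiquitin ligase of PRC1 is encoded by Rnf2 or Ring1. Rnf2 had 57.6, 56.6 and 58.3 FPKM in siCircGigyf2 and 51.5, 52.8 and 54.2 FPKM in siNC libraries and rose by 0.12 (limma adjusted p = 0.0148), a call lost without siNC replicate 1. Ring1, at 3.06 ± 0.235 FPKM in siCircGigyf2 and 2.76 ± 0.263 FPKM in siNC libraries, did not pass.

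**Figure D3:**
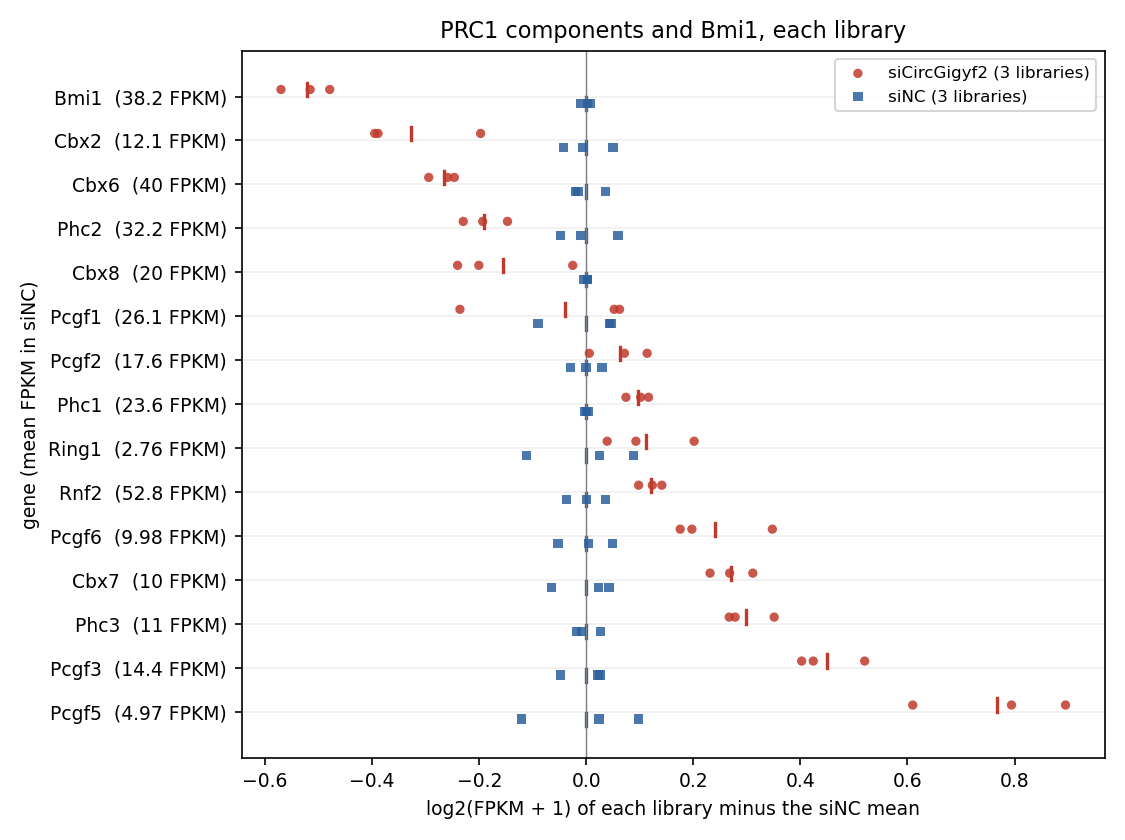
Each row is 1 of 14 PRC1 genes or Bmi1, with its mean siNC FPKM in parentheses; red circles are the 3 siCircGigyf2 libraries, blue squares the 3 siNC libraries and short bars the group means, as log2(FPKM + 1) minus the siNC mean. Bmi1 and Cbx2 lie at the lower end and Pcgf3 and Pcgf5 at the upper end, and the spread between libraries is widest for Pcgf5 and Pcgf1.

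The Pcgf3 window is shown beside those of the SMARC genes because it holds the same NRF1 letters while the gene rose. It lies at chr5:108461009-108461308 on the plus strand of GRCm38.p6, from RefSeq, and capitals mark its 1 NRF1 match.
Pcgf3: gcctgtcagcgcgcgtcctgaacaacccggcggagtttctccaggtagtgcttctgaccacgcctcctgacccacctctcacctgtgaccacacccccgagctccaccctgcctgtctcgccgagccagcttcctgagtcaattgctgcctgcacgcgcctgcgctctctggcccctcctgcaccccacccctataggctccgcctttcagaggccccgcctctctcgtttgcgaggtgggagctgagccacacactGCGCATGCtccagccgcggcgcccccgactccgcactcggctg
Among 7 PRC1 genes that rose, all with a window, NRF1 letters were in 2, Pcgf3 and Phc3.

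In PRC2, the catalytic subunit gene Ezh2 had 16.8, 15.9 and 15.4 FPKM in siCircGigyf2 and 18.3, 18.9 and 17.3 FPKM in siNC libraries. It fell by 0.17 (SE 0.047, limma adjusted p = 0.0202), without overlap, but the call was lost without siCircGigyf2 replicate 2 or 3 and without siNC replicate 1 or 2. Ezh1, the second catalytic subunit, averaged 11.1 ± 0.482 FPKM in siCircGigyf2 and 10.2 ± 0.207 FPKM in siNC libraries, the opposite order, and did not pass (0.11, limma adjusted p = 0.0902). Suz12 and Eed, the scaffold and the reader subunit, did not pass (0.07 and 0.11, limma adjusted p = 0.295 and 0.0771). Of 18 accessory or opposing Polycomb genes from a further list, Bmi1 among them, 5 fell and 1 rose, which is 33.3% called beside 38.2% of all genes. By direction 27.8% fell beside 18.7% of all genes, and 5.56% rose beside 19.5%. Bap1, the deubiquitinase that removes the PRC1 mark from H2A, had 18.8, 20.3 and 18.9 FPKM in siCircGigyf2 and 29.9, 28.2 and 28.9 FPKM in siNC libraries and fell by 0.56 (limma adjusted p = 3.82e-05).

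Bromodomain genes had the smallest median absolute log2 difference of the 11 roles, 0.054, against 0.12 for all genes. Brd2, a reader of acetylated histones and the most abundant of them, had 52.5, 55.1 and 51.8 FPKM in siCircGigyf2 and 54.1, 55.2 and 55.7 FPKM in siNC libraries. It did not pass (log2 difference -0.05, limma adjusted p = 0.276), and the groups overlapped. Brd9, a subunit of non-canonical BAF, averaged 8.86 ± 0.119 FPKM in siCircGigyf2 and 7.73 ± 0.683 FPKM in siNC libraries and rose by 0.18 (limma adjusted p = 0.047), a call lost in 9 of 14 alternative fits. Brd7, a PBAF subunit, averaged 24.0 ± 0.697 FPKM in siCircGigyf2 and 21.8 ± 0.592 FPKM in siNC libraries and rose by 0.13 (limma adjusted p = 0.0261), a call lost without siCircGigyf2 replicate 3 or siNC replicate 1 or 2.

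Among acetyltransferases the paralogs Kat2a and Kat2b moved in opposite directions. Both encode the alternative catalytic subunits of SAGA-type coactivators. Kat2b (PCAF) had 15.4, 14.2 and 14.1 FPKM in siCircGigyf2 and 10.4, 10.7 and 10.1 FPKM in siNC libraries. Kat2a (GCN5) had 13.0, 13.9 and 14.7 FPKM in siCircGigyf2 and 16.2, 15.7 and 17.8 FPKM in siNC libraries. Kat2b rose by 0.45 (SE 0.048, limma adjusted p = 1.77e-04) while Kat2a fell by 0.24 (SE 0.059, limma adjusted p = 0.0114), so that Kat2a was above Kat2b in every siNC library while their values overlapped in the siCircGigyf2 libraries. Kat6a, the catalytic subunit of the MOZ complex, had 22.3, 21.8 and 23.5 FPKM in siCircGigyf2 and 28.1, 28.8 and 28.7 FPKM in siNC libraries and fell by 0.33 (SE 0.038, limma adjusted p = 2.46e-04). Its paralog Kat6b, at 4.40 ± 0.116 FPKM in siCircGigyf2 and 4.69 ± 0.0401 FPKM in siNC libraries, did not pass (-0.08, limma adjusted p = 0.3). Kat5 (TIP60) averaged 9.87 ± 0.361 FPKM in siCircGigyf2 and 11.0 ± 0.511 FPKM in siNC libraries and fell by 0.15 (limma adjusted p = 0.045), a call lost in 7 of 14 alternative fits. Of 17 further genes of acetyltransferases and their subunits 1 rose and 1 fell, which is 11.8% called beside 38.2% of all genes.

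Deacetylase genes changed in 1 of 11 HDACs and 2 of 7 sirtuins. Hdac1 had 29.8, 31.0 and 32.0 FPKM in siCircGigyf2 and 38.0, 39.2 and 37.6 FPKM in siNC libraries and fell by 0.30 (SE 0.037, limma adjusted p = 3.52e-04). Hdac2, which shares its complexes, had 134, 128 and 136 FPKM in siCircGigyf2 and 132, 129 and 132 FPKM in siNC libraries. Hdac1 fell while Hdac2, present at several times its level, showed overlapping groups (0.02, limma adjusted p = 0.674, and -0.03 after quantile normalization). Hdac3 averaged 16.6 ± 1.22 FPKM in siCircGigyf2 and 18.5 ± 0.191 FPKM in siNC libraries, just short of the threshold (-0.14, limma adjusted p = 0.0522; named after its values were seen). The NAD-dependent sirtuins Sirt6, a nuclear enzyme, and Sirt5, a mitochondrial desuccinylase, rose by 0.23 and 0.26 (limma adjusted p = 0.0167 and 0.0408). Sirt6 averaged 14.2 ± 0.902 FPKM in siCircGigyf2 and 11.98 ± 0.822 FPKM in siNC libraries, and Sirt5 averaged 2.23 ± 0.195 FPKM in siCircGigyf2 and 1.70 ± 0.189 FPKM in siNC libraries. Neither call was stable: without siCircGigyf2 replicate 2 or without siNC replicate 2 both were lost. Sirt1 and Sirt2 did not pass, with log2 differences of -0.07 and 0.07.

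Subunits of the corepressor complexes in which HDAC1 works were divided. In a list of 18 tested corepressor and NuRD genes, 5 rose (27.8%, beside 19.5% of all genes) and 4 fell (22.2%, beside 18.7%). Sap30, a SIN3 complex subunit, had 110.1, 114 and 111 FPKM in siCircGigyf2 and 82.2, 82.4 and 76.5 FPKM in siNC libraries and rose by 0.47 (SE 0.036, limma adjusted p = 3.92e-05). Mta1, a NuRD subunit that binds HDAC1, averaged 27.2 ± 0.996 FPKM in siCircGigyf2 and 38.54 ± 1.998 FPKM in siNC libraries and fell by 0.49 (limma adjusted p = 9.16e-05). Rest, which silences neuronal genes outside neurons through such corepressors, averaged 10.2 ± 0.582 FPKM in siCircGigyf2 and 8.16 ± 0.373 FPKM in siNC libraries and rose by 0.29 (limma adjusted p = 0.00322). Mta1 and Rest were picked with their values in view.

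Genes grouped by symbol as lysine methyltransferases gave 3 rises and 1 fall. Setd8 (now Kmt5a), which places the single methyl mark on H4 lysine in dividing cells, had 26.6, 26.0 and 26.3 FPKM in siCircGigyf2 and 32.0, 32.4 and 31.7 FPKM in siNC libraries and fell by 0.27 (SE 0.031, limma adjusted p = 2.27e-04). Setd7, which methylates H3 and many other proteins, had 20.0, 19.7 and 20.2 FPKM in siCircGigyf2 and 15.5, 16.2 and 16.4 FPKM in siNC libraries and rose by 0.30 (SE 0.038, limma adjusted p = 4.39e-04). These 2 are the largest changes of the family in each direction. Setd5, mutated in a human intellectual disability syndrome and the most abundant of the family, averaged 63.8 ± 0.858 FPKM in siCircGigyf2 and 58.0 ± 0.484 FPKM in siNC libraries (0.14, limma adjusted p = 0.00477). Setd3, which methylates actin, averaged 40.9 ± 1.35 FPKM in siCircGigyf2 and 37.8 ± 0.653 FPKM in siNC libraries (0.11, limma adjusted p = 0.0307), and its call was lost in 6 of 14 alternative fits. The H3 lysine methyltransferases of silent chromatin, Ehmt1, Ehmt2, Suv39h1 and Suv39h2, did not pass, with log2 differences of 0.07, 0.09, 0.03 and -0.19.

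In a list of 24 other histone methyltransferase genes, 7 rose and 3 fell, which is 41.7% called beside 38.2% of all genes. By direction 29.2% rose beside 19.5% of all genes, and 12.5% fell beside 18.7%. Ash2l, a shared subunit of the MLL-type H3 methyltransferase complexes, had 19.7, 20.7 and 20.0 FPKM in siCircGigyf2 and 31.6, 30.9 and 31.7 FPKM in siNC libraries and fell by 0.62 (SE 0.034, limma adjusted p = 1.27e-05). Of the catalytic subunits of these complexes, Kmt2a, Kmt2c and Kmt2d rose by 0.13, 0.23 and 0.16 (limma adjusted p = 0.00902, 0.0013 and 0.00461), and Kmt2b did not pass (0.11, limma adjusted p = 0.0931). The other shared subunits Wdr5, Rbbp5 and Dpy30 did not pass either, with log2 differences of 0.04, -0.03 and 0.10. These 7 genes were named after their values were seen. Prmt6 and Prmt2, arginine methyltransferases, rose by 0.33 and 0.32 (limma adjusted p = 0.00588 and 0.00364).

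Demethylase genes that changed mostly rose, with ratios of means of at most 1.14. Kdm6b, which removes the Polycomb mark from H3, had 29.7, 29.7 and 30.7 FPKM in siCircGigyf2 and 26.5, 26.0 and 26.4 FPKM in siNC libraries and rose by 0.19 (SE 0.032, limma adjusted p = 0.00207). Kdm1a (LSD1), the most abundant of the family, had 76.2, 75.5 and 74.3 FPKM in siCircGigyf2 and 67.3, 66.9 and 68.1 FPKM in siNC libraries and rose by 0.16 (SE 0.027, limma adjusted p = 0.00207). In both genes the replicates lay tightly together, so that a small difference passed. Kdm2a averaged 22.3 ± 0.0193 FPKM in siCircGigyf2 and 19.8 ± 0.276 FPKM in siNC libraries (0.17, limma adjusted p = 0.00388), and Kdm4b averaged 21.7 ± 0.682 FPKM in siCircGigyf2 and 19.3 ± 0.721 FPKM in siNC libraries (0.16, limma adjusted p = 0.0162). Kdm4c rose by 0.11 (limma adjusted p = 0.0448; named after its values were seen). The Kdm4b call was lost without siCircGigyf2 replicate 2 or siNC replicate 2, and the Kdm4c call whichever library was left out. The single fall was Kdm5c, an X-linked H3 demethylase tied to intellectual disability in humans, at 42.5 ± 0.891 FPKM in siCircGigyf2 and 46.5 ± 0.719 FPKM in siNC libraries (-0.13, limma adjusted p = 0.0115). Kdm6a, Kdm5b and Kdm1b did not pass, with log2 differences of -0.07, -0.01 and 0.09.

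**Figure D4:**
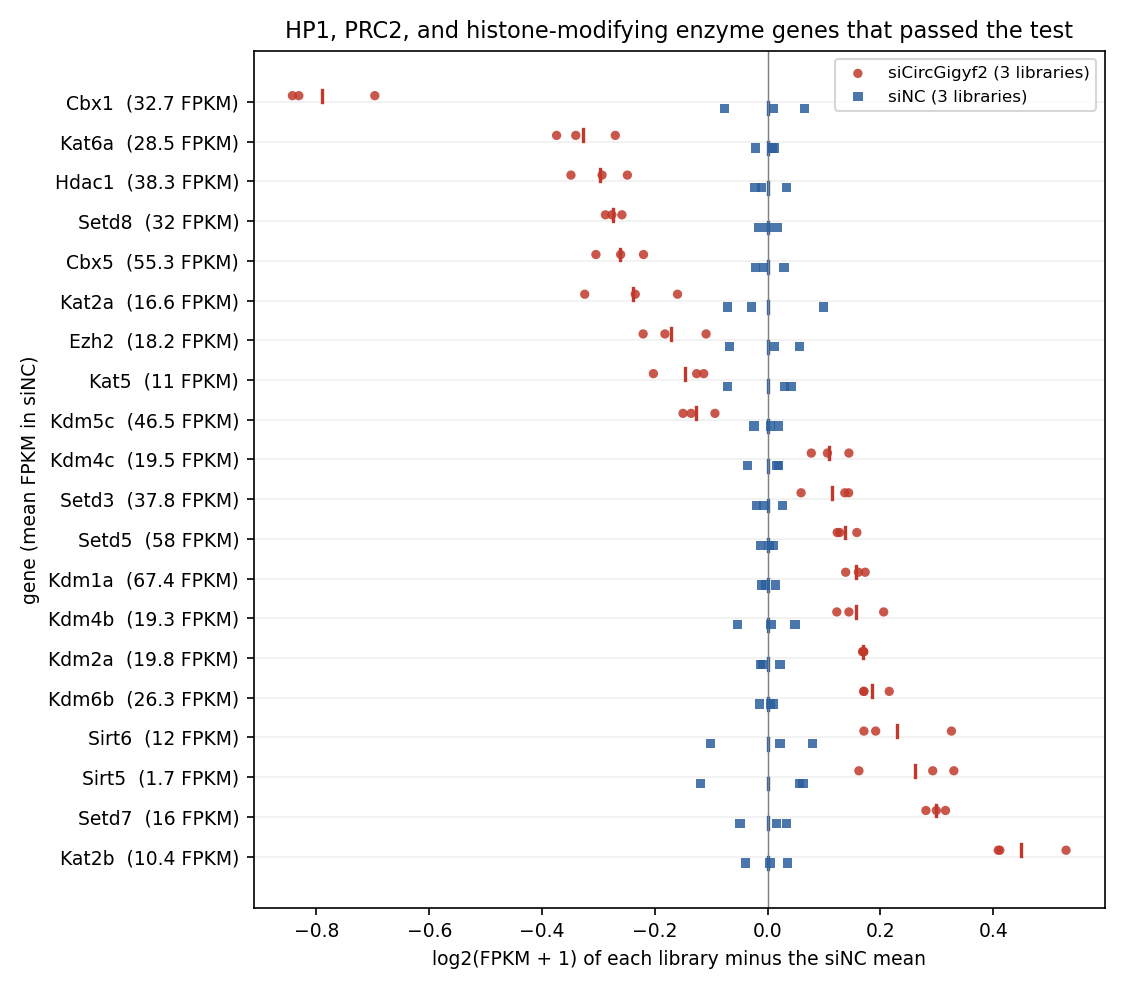
Each row is a gene of HP1, PRC2 or the acetyltransferase, deacetylase, methyltransferase and demethylase families that passed a limma adjusted p of 0.05, with its mean siNC FPKM in parentheses. Red circles are the 3 siCircGigyf2 libraries, blue squares the 3 siNC libraries and short bars the group means, as log2(FPKM + 1) minus the siNC mean; Cbx1 lies far below all others, and Kat2b lies at the upper end.

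A call in one paralog and none in the other does not show that the pair's balance moved, so the log2 ratio of paralogs, each as FPKM + 1, was formed within each library and compared between groups for 19 pairs. With 3 against 3 libraries the exact permutation test cannot give a p below 0.10, and after Benjamini-Hochberg adjustment over the 19 pairs the smallest value was 0.146, so no pair can pass 0.05. Adding 1 to each FPKM draws the ratio toward 0 where a gene is low. In 13 pairs the ratios of the groups did not overlap. Single genes did not overlap in 51.0% of all genes tested, and the share over other pairs of genes was not computed, so the count of 13 has no background of its own. Kat2a over Kat2b had log2 ratios of -0.23, -0.02 and 0.06 in siCircGigyf2 and 0.59, 0.52 and 0.76 in siNC libraries, a difference of -0.69 (exact permutation p = 0.10). Cbx5 over Cbx1 had 1.35, 1.28 and 1.18 in siCircGigyf2 and 0.66, 0.85 and 0.72 in siNC libraries, a difference of 0.53 (exact permutation p = 0.10). These are the pairs with the widest differences in each direction.

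The ratio of Hdac1 over Hdac2 was -2.06 ± 0.0615 in siCircGigyf2 and -1.75 ± 0.0479 in siNC libraries (SD, n = 3 each; exact permutation p = 0.10). Smarca5 over Smarca1 was 3.83 ± 0.0665 in siCircGigyf2 and 4.16 ± 0.0988 in siNC libraries, and Smarcc1 over Smarcc2 was 0.51 ± 0.0514 in siCircGigyf2 and 0.79 ± 0.0416 in siNC libraries, again without overlap. For Ezh2 over Ezh1 the ratios were 0.49 ± 0.0556 in siCircGigyf2 and 0.78 ± 0.0744 in siNC libraries, without overlap, although the members themselves differed by only -0.17 and 0.11. Kat6a over Kat6b and Kdm6a over Kdm6b differed by -0.25 and -0.26, each without overlap. Pairs whose ratios overlapped between the groups were Rnf2 with Ring1, Ehmt1 with Ehmt2, Suv39h1 with Suv39h2, Chd4 with Chd3, Chd7 with Chd8 and Kdm1a with Kdm1b. How reads from near-identical stretches of paralogs were assigned is not given in the sources used here, so these ratios are uncertain to that degree.

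**Figure D5:**
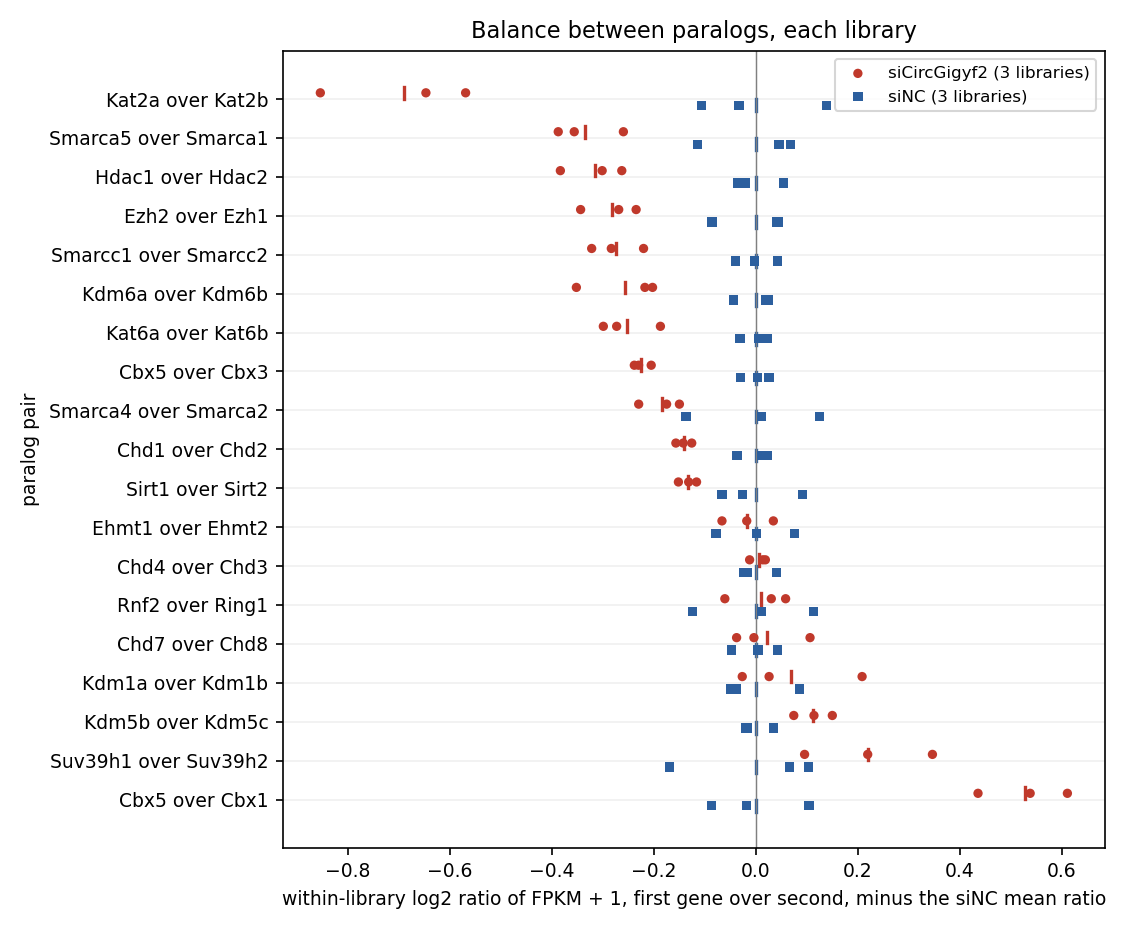
Each row is 1 of 19 paralog pairs; red circles are the 3 siCircGigyf2 libraries, blue squares the 3 siNC libraries and short bars the group means of the within-library log2 ratio of FPKM + 1, first gene over second, minus the siNC mean ratio. Kat2a over Kat2b lies farthest to the left and Cbx5 over Cbx1 farthest to the right, and the groups overlap for 6 pairs.

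Chromatin genes outside the symbol rule were counted in 8 lists of 145 symbols, of which 133 had a row and 131 were tested. In all 25 rose and 30 fell, 42.0% called beside 38.2% of all genes, with a median log2 difference of -0.002. Histone chaperones, which carry histones to and from DNA, had 6 falls and 2 rises among 12, which is 66.7% called beside 38.2% of all genes. By direction 50% fell beside 18.7% of all genes, and 16.7% rose beside 19.5%. Asf1b, the H3-H4 chaperone of dividing cells, had 6.69, 6.30 and 6.99 FPKM in siCircGigyf2 and 9.93, 12.9 and 11.2 FPKM in siNC libraries and fell by 0.68 (SE 0.084, limma adjusted p = 3.42e-04). Subunits of the replication-coupled chaperone CAF-1 were lower too: Chaf1b fell by 0.40 and Chaf1a by 0.28 (limma adjusted p = 0.00459 and 0.00565; named after their values were seen). Asf1a, the paralog of Asf1b, rose by 0.13 (limma adjusted p = 0.0437; named after its values were seen), a call lost in 7 of 14 alternative fits.

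Among 11 tested DNA methylation genes 4 rose (36.4%, beside 19.5% of all genes) and 2 fell (18.2%, beside 18.7%). The maintenance methyltransferase gene Dnmt1 averaged 17.8 ± 0.591 FPKM in siCircGigyf2 and 24.2 ± 0.617 FPKM in siNC libraries, and its partner Uhrf1 averaged 22.6 ± 0.447 FPKM in siCircGigyf2 and 26.1 ± 0.759 FPKM in siNC libraries. Both fell, by 0.42 and 0.20 (limma adjusted p = 9.58e-05 and 0.0027). The demethylation enzymes Tet1, Tet2 and Tet3 rose by 0.34, 0.32 and 0.17 (limma adjusted p = 0.00339, 3.06e-04 and 0.00904), as did the de novo methyltransferase gene Dnmt3a (0.17, limma adjusted p = 0.00807). Tdg, which also acts in demethylation, did not pass (-0.00196, limma adjusted p = 0.984), nor did Uhrf2 (0.07, limma adjusted p = 0.113), Mbd1 and Mbd4. Tet1 had 5.05, 4.46 and 4.52 FPKM in siCircGigyf2 and 3.48, 3.58 and 3.42 FPKM in siNC libraries. Apart from Tet1, the genes of this paragraph were picked with their values in view. Of 16 other remodeler genes 2 rose and 3 fell, which is 31.2% called beside 38.2% of all genes.

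The 3′ UTRs of the members were searched for the letters GCCTACA, a sequence that earlier work on these same libraries had picked because genes that hold it were lower, so its share among all falls is no independent result. In the GENCODE M21 annotation (GRCm38), 3′ UTRs of the longest coding transcript held it in 14.2% of all genes that fell, 5.03% of those that rose and 5.81% of those with no call. Among chromatin genes it was in 1 of 20 that fell, 3 of 24 that rose and 3 of 62 with no call. These sites are shown because members with the letters stand on both sides, with the letters in capitals and up to 8 bases on each side. Smarca4 (chr9:21704036-21704058, plus strand) fell, and Setd7 (chr3:51516676-51516699, minus strand), Phc3 (chr3:30899453-30899475, minus strand) and Sirt5 (chr13:43386226-43386248, plus strand) rose.
Smarca4: ttcctagaGCCTACAgaggtcaa
Setd7: atcaaaaaGCCTACAAaccgctct
Phc3: agtggtggGCCTACAggatcttt
Sirt5: tgcatatgGCCTACAcagagatg
Cbx8 (chr11:119037206-119037228, minus strand), Kdm7a (chr6:39141372-39141394, minus strand) and Brd8 also hold the letters and did not pass.
Cbx8: gtccccgaGCCTACAgtcgccgc
Kdm7a: tagcccctGCCTACAcaatgcca
Setd7, with the longer match of 8 letters, rose by 0.30, and the letters were not found in the annotated 3′ UTR of Cbx1, the member with the largest fall. Whether the letters act on any member was not tested. The 3′ UTRs of members that rose had a median length of 1881.5 bases, those of members that fell 1361.5 and those with no call 1124, while the medians of all tested genes were 1380.5, 1210 and 1099.5 in the same order.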

How the data were processed

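RNA-seq libraries of CAD cells, 3 siCircGigyf2 and 3 siNC, were grouped by sample title and treatment label. The authors deposited 1 table of FPKM, with genes in rows by symbol and libraries in columns. According to the submitters' processing notes the build was mm9; the aligner, quantifier, annotation and strand handling are not given in the sources used here, so overlapping and antisense genes cannot be separated. Absolute depth is unknown; the labels' protocols give only a target per sample (80M reads). Nothing in the labels says that replicates were separate cultures, so the spread behind the p-values is that of these samples and may be technical. The largest share of identical nonzero values between 2 libraries was 0.0068%.

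FPKM are not counts, so log2(FPKM + 1) was tested with limma 3.58.1 in R 4.3.3 (empirical Bayes, mean-variance trend, two-sided, no covariates) over the 11420 genes with a mean of at least 1 FPKM, with Benjamini-Hochberg adjustment over all of them and a threshold of 0.05. Each difference subtracts the siNC from the siCircGigyf2 mean and is damped for genes of low FPKM. The members, roles, lists, pairs and motifs were chosen with earlier results of these data known. Some members of these families are not reported here.

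Named genes were, per role, up to 3 rises and up to 3 falls past the threshold without overlap and the gene of highest mean FPKM, both genes of each tested pair, and the 4 largest rises and falls of the other lists; all others are marked as picked with their values in view, or are members that did not pass. GENCODE M21 (GRCm38) gave 3' UTRs for 111 members, and RefSeq (GRCm38.p6) gave promoter windows for 90. Symbols were matched directly or through a single RefSeq synonym. Python 3.11.15 with pandas 2.3.3 and matplotlib 3.10.9 was used for sequences and figures. Alternatives were quantile and median-of-ratios scaling, a pseudocount of 0.1, a filter of 5 FPKM or none, empirical Bayes made robust or without the trend, a term for the replicate number, and omission of each library in turn.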

Additional observations from a re-analysis of the deposited data

How the results depend on the processing

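Of the 44 called chromatin genes, 28 kept the call under all 14 alternatives in which they were tested, 16 lost it under at least 1 and 0 changed sign. Family counts moved by over 1.5 times, or to or from 0, as follows. Bromodomain genes that rose numbered 1 with no filter, median-of-ratios scaling or no variance trend. HDAC genes that fell numbered 2 with a filter of 5 FPKM, quantile scaling or robust empirical Bayes. Sirtuins that rose numbered 1, and SMARC genes that rose 0, with no filter or a filter of 5 FPKM. Under the filter of 5 FPKM, Sirt5 (mean 1.96 FPKM) and Smarca1 (mean 3.25 FPKM) were left out of the test. The cause of the other moves was not tested.

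Leaving out 1 library gave 15 to 19 members that rose (15 without siNC replicate 2) and 15 to 19 that fell. SMARC genes that fell numbered 5 to 7 and those that rose 0 to 1, bromodomain genes that rose 0 to 1, PRC2 genes that rose 0 to 1 and that fell 0 to 1, HDAC genes that fell 1 to 2, demethylases that rose 3 to 4 and sirtuins that rose 0 to 2. PRC1 genes that rose numbered 5 to 6 and those that fell 3 to 4. With fewer libraries the test has fewer degrees of freedom.

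Signs that turned belong to values that did not pass. Hdac2 went to -0.0285 with quantile scaling, and Rnf2 over Ring1 to -0.0222 with a pseudocount of 0.1. Without 1 library, the log2 difference of Kdm5b ranged from -0.0352 to 0.00705, and the difference in ratio ranged from -0.0525 to 0.066 for Rnf2 over Ring1, -0.055 to 0.0215 for Ehmt1 over Ehmt2, -0.00492 to 0.0272 for Chd4 over Chd3 and -0.0204 to 0.0516 for Chd7 over Chd8.

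Same-numbered libraries of the groups did not deviate together throughout (correlations of 0.163, -0.0208 and 0.00253 for numbers 1, 2 and 3). The value for number 1 was the highest between any libraries of the 2 groups. But siCircGigyf2 replicate 2 correlated best with siNC replicate 3 (0.131), so the numbers were not taken to pair the samples. A fit with a replicate block gave 2047 genes that rose and 1926 that fell over the whole table; among chromatin genes 17 rose and 18 fell, with 7 SMARC falls and 0 SMARC rises, 6 PRC1 rises, 1 bromodomain rise and 1 sirtuin rise, and 9 of the 44 calls were not made (Smarca1, Smarca5, Chd6, Phc1, Brd9, Kat5, Sirt5, Setd3 and Kdm4c), nor was that of Gigyf2. Relative depth was lower in every siCircGigyf2 library than in every siNC library, and genes near 1 FPKM are the least precise.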
